A study of Mus musculus with 8 samples.

Results

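The cytochrome P450 genes of the Cyp2a and Cyp2b subfamilies were followed in mouse liver on 2 diets, low-fat (control) and high-fat. The animals were C57BL/6, a common inbred strain. The P450 genes were taken by gene name from the deposited table of read counts: Cyp2a4, Cyp2a5, Cyp2a12, Cyp2a22, Cyp2b9, Cyp2b10, Cyp2b13 and Cyp2b23, 8 of the 28073 genes in the table. The mice were aged 21 to 22 weeks, and each diet had 4 livers, which the series calls biological replicates. Diet was the only difference between the groups that the labels state. The sources used here do not give the fat content of the diets, the length of feeding, the time of collection or the sex of the mice.

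Cytochromes P450 of family 2 are heme enzymes of the hepatocyte endoplasmic reticulum that oxidise drugs, steroids and other lipophilic compounds with electrons from the reductase Por. Cyp2b10 is the classic target of the constitutive androstane receptor (CAR, gene Nr1i3), which xenobiotics such as phenobarbital activate. Cyp2a4, Cyp2b9 and Cyp2b13 are known in mice as female-predominant liver genes, kept low in males by the pulsatile male pattern of growth hormone. Cyp2a4 and Cyp2a5 are also known targets of the circadian PAR bZip factors, of which Dbp is the best studied.

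Total counts per library lay between 26643020 and 30013106, so 1 count stood for 0.0338 to 0.0388 CPM, the unit used for levels here (counts relative to the library total, scaled by TMM). The Y-linked transcript Ddx3y had 2988 to 4279 counts in every library and Xist 0 to 4, which is the pattern of male tissue. Of 8 hepatocyte markers 3 were called lower on the high-fat diet (Serpina1a, Tat and Fgb), and the summed level of all 8 was 78466 to 119891 CPM in control and 68019 to 76855 CPM in high-fat libraries. Each of these calls was lost when some of the libraries were left out, for example without control replicate 1. The summed levels of macrophage, cholangiocyte, stellate, endothelial, lymphocyte and erythroid markers overlapped between the diets, and 0 of these markers were called. Such sums follow the most abundant genes, as Alas2 among the erythroid markers. At an unadjusted edgeR p of 0.05, 3 erythroid, 2 stellate, 1 macrophage, 1 cholangiocyte and 1 endothelial marker were higher and 0 lower. Singled out after their values were seen, Col1a1 (54.9 CPM) and Col3a1 (314 CPM) were highest in high-fat replicate 3. Of 9 adipocyte markers 5 were tested and 4 were called higher: Cfd (log2 fold change 4.74) and the lipid droplet genes Cidec, Cidea and Plin4. Cfd and Cidea reached the count needed for testing only with the help of the high-fat libraries. Fabp4, also tested, was higher in every high-fat library but was not called (0.71, edgeR adjusted p = 0.055). Adipoq, the defining adipocyte transcript, was highest in 2 control libraries (42 counts in replicate 1, 32 in replicate 4) and had 0 to 10 counts elsewhere. Those 2 control libraries were also left out together as an alternative. The part of these markers in the P450 results was not tested. In bulk liver, fewer cells of a type and less RNA per cell cannot be told apart.

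All 8 genes lie in a 1140 kb stretch of chromosome 7, a tandem array in which several neighbours are near copies of each other. The annotated coding sequences of Cyp2a4 and Cyp2a5 are both 1482 bases long and differ at 23 positions, an identity of 98.4%. Cyp2a12 and Cyp2a22 share 97.0% of aligned coding bases, and Cyp2b9 and Cyp2b13 share 92.7%. Reads from such pairs can be assigned to either copy. Of all 50-base windows in the Cyp2a4 transcript, 36.1% also occur in Cyp2a5 and 11.3% in the pseudogene Cyp2a21-ps, and 38.0% occur in some other gene. The stretch of 60 coding bases with the most differences between Cyp2a4 and Cyp2a5 is shown first because a read over it tells them apart, with capitals at the differing bases:
Cyp2a4, coding bases 596 to 655: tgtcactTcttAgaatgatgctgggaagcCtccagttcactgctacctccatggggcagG
Cyp2a5, coding bases 596 to 655: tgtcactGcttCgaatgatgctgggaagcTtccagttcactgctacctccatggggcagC
Positions are counted from 1 at the A of the start codon. The difference C625T, Cyp2a4 base first, lies in codon 209, the residue long known to separate the steroid hydroxylase activity of Cyp2a4 from the coumarin hydroxylase activity of Cyp2a5.

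The start regions of the near copies are also alike. The RefSeq table of promoters, which runs from 250 bases before to 50 bases after each start in GRCm38.p6, the assembly that mm10 denotes, held all 8 genes. The windows of Cyp2a4 (chr7:26306942-26307241, plus strand) and Cyp2a5 (chr7:26835089-26835388, plus strand) differed at 5 of 299 aligned bases, and those of Cyp2b9 (chr7:26173159-26173458, plus strand) and Cyp2b13 (chr7:26061245-26061544, plus strand) at 2 of 300. They are shown because near-identical windows belong to genes with very different levels, with capitals at the bases that differ within a pair:
Cyp2a4: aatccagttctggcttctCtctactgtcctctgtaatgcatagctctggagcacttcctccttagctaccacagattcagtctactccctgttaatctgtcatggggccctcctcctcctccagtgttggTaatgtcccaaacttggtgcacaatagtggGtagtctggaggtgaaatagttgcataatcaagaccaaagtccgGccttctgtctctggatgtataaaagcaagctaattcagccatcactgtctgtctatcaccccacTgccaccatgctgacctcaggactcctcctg
Cyp2a5: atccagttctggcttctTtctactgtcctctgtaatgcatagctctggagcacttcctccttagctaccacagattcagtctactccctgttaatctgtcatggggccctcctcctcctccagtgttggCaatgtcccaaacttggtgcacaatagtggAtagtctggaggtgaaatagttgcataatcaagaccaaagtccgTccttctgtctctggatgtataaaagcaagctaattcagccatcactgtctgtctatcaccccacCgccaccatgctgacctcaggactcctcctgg
Cyp2b9: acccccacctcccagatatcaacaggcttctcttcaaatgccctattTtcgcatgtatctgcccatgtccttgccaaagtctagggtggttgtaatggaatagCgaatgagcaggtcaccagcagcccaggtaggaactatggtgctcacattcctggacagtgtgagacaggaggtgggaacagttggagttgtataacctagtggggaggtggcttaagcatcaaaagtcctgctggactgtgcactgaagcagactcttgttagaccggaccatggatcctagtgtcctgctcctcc
Cyp2b13: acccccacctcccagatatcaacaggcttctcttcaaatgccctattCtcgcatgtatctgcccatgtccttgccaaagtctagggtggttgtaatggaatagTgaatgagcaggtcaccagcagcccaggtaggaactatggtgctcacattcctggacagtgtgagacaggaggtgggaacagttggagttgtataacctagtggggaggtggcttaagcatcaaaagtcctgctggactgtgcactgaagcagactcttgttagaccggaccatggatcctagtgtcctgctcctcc
The Cyp2b10 window (chr7:25897408-25897707, plus strand) follows, with capitals at the octamer TTGCATAA:
Cyp2b10: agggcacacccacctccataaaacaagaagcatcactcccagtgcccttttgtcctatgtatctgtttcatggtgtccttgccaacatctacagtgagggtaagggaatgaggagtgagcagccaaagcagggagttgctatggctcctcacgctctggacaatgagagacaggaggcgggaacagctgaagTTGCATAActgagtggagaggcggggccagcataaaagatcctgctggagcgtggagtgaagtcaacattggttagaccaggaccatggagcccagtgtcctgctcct
Of the motifs searched on both strands, the D box TTANGTAA bound by PAR bZip factors occurred in 0 of 8 windows (2.32% of all 32851 promoters) and the STAT5 motif TTCNNNGAA in 0 of 8 (8.3%). The nuclear receptor hexamer AGGTCA was present in 5 of 8, against 16.3% of promoters. It lay 138 bases before the start in Cyp2b9 and Cyp2b13, 164 before it in Cyp2b23, and on the minus strand in the first 50 transcribed bases of Cyp2a4 and Cyp2a5. The hexamer AGTTCA (14.0% of promoters) and the direct repeat of AGGTCA with a 1-base spacer (0.0396%) were in none of the 8. The form TTGCNNAA, known for C/EBP factors and searched after the promoters were read, stood in 6 of 8 windows against 10.8% of promoters. In Cyp2a4, Cyp2a5, Cyp2b10 and Cyp2b23 it read TTGCATAA and lay 58 to 85 bases before the start, and in Cyp2b9 and Cyp2b13 it read TTGCCAAA. A TATAAA box, also searched afterwards, was found in the 4 Cyp2a windows and in no Cyp2b window (13.6% of promoters). Such matches describe letters only; windows of paralogs are not independent, and the distal enhancer through which CAR acts on Cyp2b10 lies outside the window.

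Cyp2a5, the coumarin hydroxylase and the counterpart of human CYP2A6, which oxidises nicotine, was well expressed on both diets and rose on the high-fat diet. The gene (ENSMUSG00000005547.14, chr7:26835305-26843548, plus strand, mm10) had 57.4, 67.2, 65.4 and 113 CPM in control replicates 1 to 4 and 184, 131, 321 and 143 CPM in high-fat replicates 1 to 4. Every high-fat library was above every control library. Control replicate 4 came nearest to them, and high-fat replicate 3 lay far above the rest. The means were 75.8 ± 25.2 and 195 ± 87.0 CPM (SD, n = 4 each). The log2 fold change was 1.36 ± 0.31 (SE, edgeR quasi-likelihood adjusted p = 0.0241). The call was lost without control replicate 1 or control replicate 2 (edgeR adjusted p = 0.0629 and 0.0704), at log2 fold changes of 1.25 and 1.31.

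Cyp2a4, the steroid hydroxylase, was barely detected on the control diet and rose on the high-fat diet. The gene (ENSMUSG00000074254.4, chr7:26307169-26315088, plus strand) had 2, 3, 6 and 2 counts in the control libraries and 95, 38, 554 and 55 in the high-fat libraries. These corresponded to 0.0731 to 0.206 CPM and 1.35 to 18.7 CPM. No library of one group reached the other, and high-fat replicate 3 held most of the high-fat reads. The log2 fold change was 5.69 ± 1.10 (edgeR adjusted p = 0.0134). Without high-fat replicate 3 it was 4.17 (edgeR adjusted p = 0.0043), and the call was lost with limma-voom (adjusted p = 0.0569) and without control replicates 1 and 4 together (edgeR adjusted p = 0.107).

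Since reads can be split between the copies, the share of Cyp2a4 in the counts of both genes was computed for each library. The share was 0.135%, 0.165%, 0.313% and 0.0646% in control replicates 1 to 4 and 1.76%, 1.01%, 5.52% and 1.38% in high-fat replicates 1 to 4. The highest control value had an exact binomial 95% interval of 0.115% to 0.681% and the lowest high-fat value one of 0.719% to 1.39%, so the intervals of the groups did not meet; they cover counting error only. The pair together had 75.9 ± 25.2 CPM on the control and 201 ± 95.2 CPM on the high-fat diet, almost all of it from Cyp2a5. An antisense row, Gm44963, overlaps the first 118 bases of Cyp2a4 on the opposite strand. It was singled out after its values were seen and had 3, 2, 6 and 6 counts in control and 15, 16, 28 and 18 in high-fat libraries (log2 fold change 2.09 ± 0.37, edgeR adjusted p = 0.0102). No control library reached the count needed for testing. Like Cyp2a4, Gm44963 could enter the test only by being higher in the high-fat libraries, so its call is no support for that of Cyp2a4. Whether the counting used strand is not stated in the sources used, so reads of the 2 genes over this overlap cannot be told apart.

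Cyp2a12, which hydroxylates testosterone and the bile acid deoxycholate in mice, was the most abundant of the 8, and its difference between the diets was not called. The gene (ENSMUSG00000060407.6, chr7:27029081-27037375, plus strand) had 449, 398, 430 and 605 CPM in control libraries and 634, 547, 651 and 624 CPM in high-fat libraries. Control replicate 4 lay inside the high-fat range and the other 3 controls lay below it. The means of 470.2 ± 92.1 and 614 ± 46.0 CPM gave a log2 fold change of 0.38 ± 0.13, which was not called (edgeR adjusted p = 0.0972). It was called without control replicate 4 (0.53, edgeR adjusted p = 0.0084) and without control replicates 1 and 4 (0.57, edgeR adjusted p = 0.0239). DESeq2 (adjusted p = 0.034) and library totals alone (edgeR adjusted p = 0.041) called it as well.

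Cyp2a22, the near copy of Cyp2a12, was low on the control diet and rose. The gene (ENSMUSG00000091867.2, chr7:26931631-26939384, minus strand) had 11, 12, 88 and 15 counts in control and 143, 113, 445 and 204 in high-fat libraries, or 0.427, 0.444, 3.02 and 0.548 CPM against 4.95, 4.00, 15.1 and 7.41 CPM. The groups did not overlap, although control replicate 3 stood well above the other controls and near the lowest high-fat library. The log2 fold change was 2.80 ± 0.66 (edgeR adjusted p = 0.0298) and 4.04 without control replicate 3. Leaving out control replicate 1, 2 or 4 ended the call, as did leaving out high-fat replicate 3 or 4 (range of edgeR adjusted p = 0.0618 to 0.0816). Its share in the counts of Cyp2a12 and Cyp2a22 was 0.697% in control replicate 3 and 0.0906% to 0.112% in the other controls. In high-fat libraries the share was 0.727% to 2.26%, and the exact 95% interval of control replicate 3 (0.560% to 0.859%) met that of the lowest high-fat library (0.599% to 0.873%). The pseudogene Cyp2a21-ps overlaps Cyp2a22 on the opposite strand and had 0 to 6 counts per library.

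**Figure D1:**
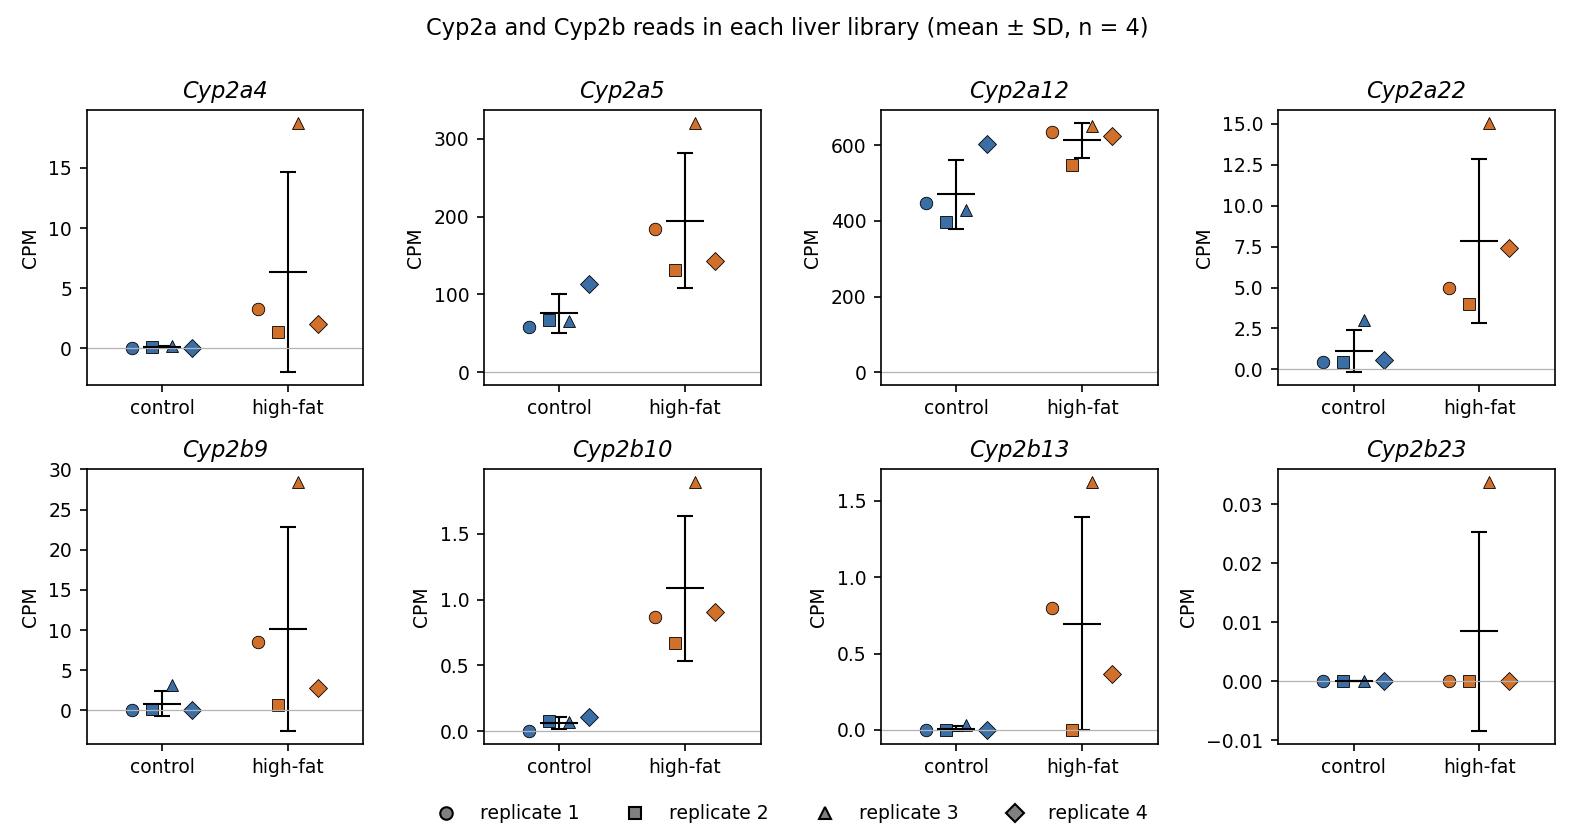
Level of each gene in CPM (vertical axes, scaled per gene) in the 4 control and 4 high-fat libraries; symbols mark the replicate, and black bars the mean ± SD. High-fat replicate 3 was the highest high-fat library for every gene, for example 18.7 CPM of Cyp2a4 and 28.5 CPM of Cyp2b9.

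**Figure D2:**
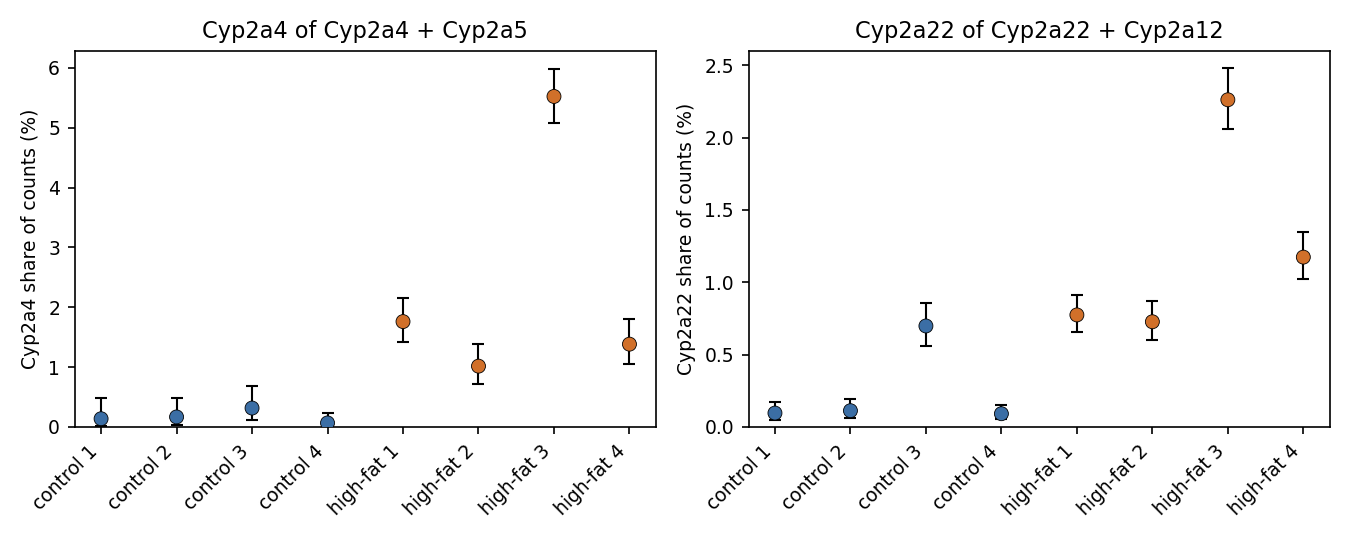
Share of Cyp2a4 in the counts of Cyp2a4 and Cyp2a5 (left) and of Cyp2a22 in those of Cyp2a22 and Cyp2a12 (right), in percent per library, with exact binomial 95% intervals. The Cyp2a4 share was at most 0.313% in control and at least 1.01% in high-fat libraries, while the Cyp2a22 share of control replicate 3 (0.697%) was close to the lowest high-fat value (0.727%).

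Among the Cyp2b genes, Cyp2b10 was near the detection limit on the control diet and rose on the high-fat diet to a level that was still low. The gene (ENSMUSG00000030483.14, chr7:25897620-25926624, plus strand) had 0, 2, 2 and 3 counts in control and 25, 19, 56 and 25 in high-fat libraries. The highest high-fat value was 1.89 CPM and the groups did not overlap. A count of 0 in control replicate 1 allows up to 0.116 CPM, the level of 3 counts. The log2 fold change was 4.00 ± 0.57 (edgeR adjusted p = 0.0047), and the call held with each library left out in turn (edgeR adjusted p = 0.0076 to 0.018).

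Cyp2b9, a female-predominant P450, had the largest SE of the 6 tested genes and was not called. The gene (ENSMUSG00000040660.6, chr7:26173411-26210661, plus strand) had 2, 3, 92 and 2 counts in control and 246, 19, 841 and 75 in high-fat libraries. In CPM these were 0.0776, 0.111, 3.15 and 0.0731 against 8.51, 0.673, 28.5 and 2.72. Control replicate 3 was above high-fat replicates 2 and 4, so the groups overlapped, while the other 3 controls lay below every high-fat library. The log2 fold change was 3.51 ± 1.26 (edgeR adjusted p = 0.115). Without control replicate 3 it was 6.78 and passed (edgeR adjusted p = 0.0331), and without high-fat replicate 3 it was 2.18 (edgeR adjusted p = 0.355).

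Cyp2b13, the near copy of Cyp2b9, had too few counts for the test. The gene (ENSMUSG00000040583.8, chr7:26061497-26096197, plus strand) had 0, 0, 1 and 0 counts in control and 23, 0, 48 and 10 in high-fat libraries. High-fat replicate 2, the library with the lowest Cyp2b9, had no count, so the groups overlapped. Summed over the libraries of a group, 1 count stood against 81, a ratio of 77.5 with an exact 95% counting interval of 13.5 to 3099.6, which leaves out the spread between mice. Its share in the counts of Cyp2b9 and Cyp2b13 was 8.55%, 0%, 5.40% and 11.8% in high-fat replicates 1 to 4. Cyp2b23 (ENSMUSG00000040650.8, chr7:26665227-26686437, minus strand) had 1 count in high-fat replicate 3 and 0 in the other 7 libraries, where 0 allows up to 0.103 to 0.116 CPM.

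In all, 6 of the 8 genes had enough counts to be tested, 4 of them were called higher (Cyp2a4, Cyp2a5, Cyp2a22 and Cyp2b10) and none lower, by edgeR at an adjusted p of 0.05. Over all 14088 genes tested, 9.61% were called, 3.75% higher and 5.86% lower. The groups did not overlap for the same 4 genes, against 7.28% of all genes with every high-fat library higher. At an unadjusted p of 0.05, 6 were higher (11.1% of all genes) and 0 lower, and DESeq2 called 5 higher (6.1% of all genes) and 0 lower. Cyp2a4, Cyp2b9 and Cyp2b10 reached the count needed for testing in 4 high-fat libraries but in 0, 1 and 0 control libraries, so they could enter the test only by being higher there, and the count of calls is no support for a shared direction. The count was 2 without control replicate 1 or 2, when Cyp2a5 and Cyp2a22 were lost, and 3 without control replicates 1 and 4 together, when Cyp2a4 and Cyp2a22 were lost and Cyp2a12 was gained.

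**Figure D3:**
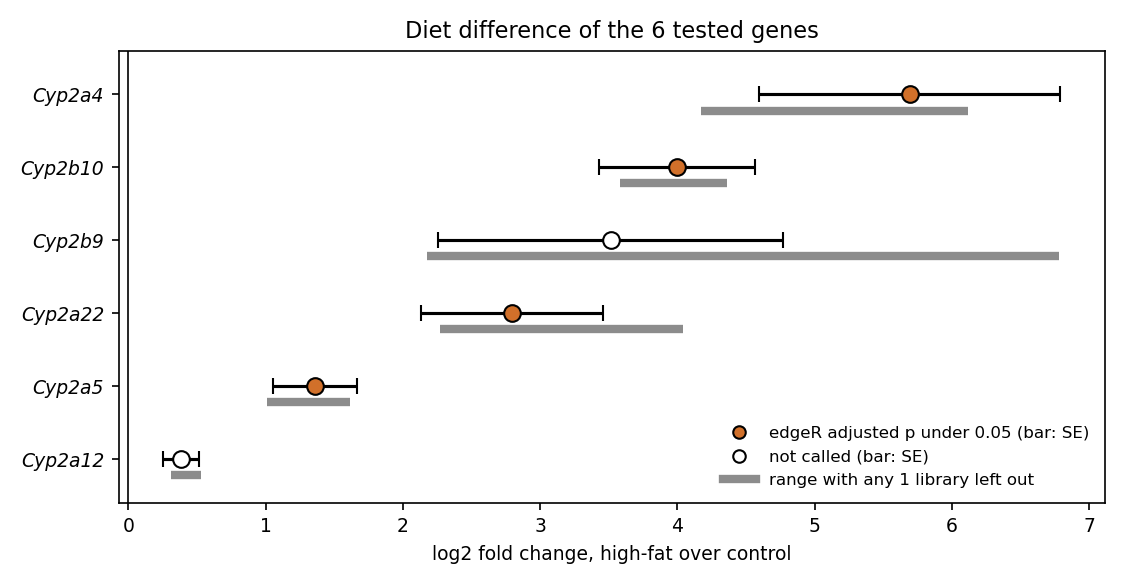
Log2 fold change, high-fat over control (horizontal axis), of the 6 tested genes with its SE; filled points passed edgeR's adjusted p of 0.05, and grey bars span the values with any 1 library left out. Cyp2a4 (5.69) and Cyp2b10 (4.00) had the largest changes among called genes, and Cyp2b9 had the widest range, from 2.18 to 6.78.

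Compared per kilobase of transcript, the levels kept the same leading genes on both diets. On the control diet the mean level was 279.7 CPM per kb for Cyp2a12 and 37.6 for Cyp2a5, followed by 0.618 for Cyp2a22, 0.455 for Cyp2b9, 0.0672 for Cyp2a4, 0.0329 for Cyp2b10 and 0.0046 for Cyp2b13. On the high-fat diet it was 365 CPM per kb for Cyp2a12 and 96.6 for Cyp2a5, then 5.38 for Cyp2b9, 4.37 for Cyp2a22, 3.65 for Cyp2a4, 0.566 for Cyp2b10 and 0.371 for Cyp2b13. Cyp2a12 and Cyp2a5 were separated from each other and from the rest in every library. The high-fat ranges of Cyp2b9 (0.359 to 15.2 CPM per kb), Cyp2a22 (2.23 to 8.38) and Cyp2a4 (0.775 to 10.8) overlapped, as did those of Cyp2b10 (0.351 to 0.989) and Cyp2b13 (0 to 0.866). The order within these neighbours is not resolved.

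The libraries of a group differed in a shared way. High-fat replicate 3 was the highest high-fat library for 8 of 8 genes, and over all tested genes it was the highest for 28.8%. High-fat replicate 2 was the lowest alone for 7 of 8 (20.7% of all genes), the exception being Cyp2b23. Control replicate 3 was the highest control for Cyp2a4, Cyp2a22, Cyp2b9 and Cyp2b13, and control replicate 4 for Cyp2a5, Cyp2a12 and Cyp2b10. Among high-fat libraries the highest value was 13.9 times the lowest for Cyp2a4 and 42.3 times for Cyp2b9, but 1.19 times for Cyp2a12. These ranks come from 4 mice, and near copies that share reads are not independent of each other.

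Between the outermost genes, Cyp2b10 and Cyp2a12, the table holds 21 rows, and besides the 8 genes only Gm44963 had enough counts to be tested. The pseudogenes Cyp2b26-ps, Cyp2b27-ps and Cyp2a21-ps had at most 6 counts in a library, and Cyp2g1, an olfactory P450, had 1 to 10. Outside the array lies Cyp2f2, an abundant periportal P450 on the list of periportal genes, with 596 ± 66.4 and 508 ± 47.2 CPM (log2 fold change -0.23 ± 0.10, edgeR adjusted p = 0.195). Cyp2s1, a P450 gene on the Cyp2b10 side of the array that was singled out after its values were seen, gave 0.27 ± 0.52 as its log2 fold change, at an edgeR adjusted p = 0.785. Neither was called.

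**Figure D4:**
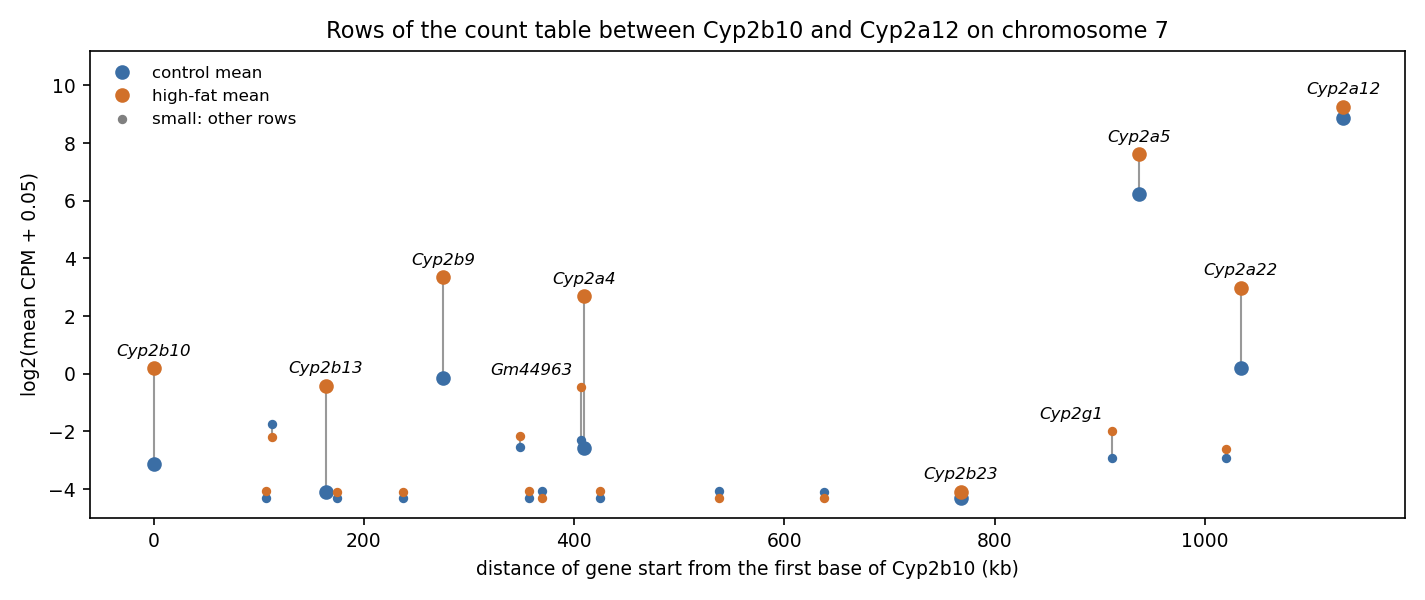
Mean level of the 21 rows between Cyp2b10 and Cyp2a12, as log2(mean CPM + 0.05) (vertical axis), by distance of the gene start from Cyp2b10 in kb; blue is control and orange high-fat, and small points are rows outside the 8 genes. The well expressed Cyp2a12 and Cyp2a5 lie towards the far end, and the longest line is that of Cyp2a4 (means of 0.117 and 6.34 CPM).

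CAR and its partners were measured as context for these targets. The CAR gene Nr1i3 rose from 43.2, 39.2, 61.4 and 65.4 CPM in control to 96.2, 104, 99.7 and 81.9 CPM in high-fat libraries, without overlap (log2 fold change 0.87 ± 0.16, edgeR adjusted p = 0.0122). Cyp2b10 had 25, 19, 56 and 25 counts in the same high-fat libraries. The part of Nr1i3 in the levels of the P450 genes was not tested. Por, their electron donor, had 71.2 ± 17.5 CPM in control and 184 ± 50.9 CPM in high-fat libraries and rose (1.37 ± 0.22, edgeR adjusted p = 0.0067). The PXR gene Nr1i2 (0.33 ± 0.12, edgeR adjusted p = 0.139) and Alas1, which starts heme synthesis (0.34 ± 0.51, edgeR adjusted p = 0.731), were not called. Nr1i2 passed with library totals alone (edgeR adjusted p = 0.0498), a scaling under which the median over all genes went from 0.0069 to 0.10 on the log2 scale. Of 9 genes on the list of CAR and PXR machinery 2 were called higher and 1 lower, the coactivator gene Ppargc1a (-1.06 ± 0.18, edgeR adjusted p = 0.0094); 4 were called higher without control replicate 4.

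Of 37 other known CAR and PXR targets 34 were tested, 10 were called higher and 1 lower, with a median log2 fold change of 0.35 against 0.0069 over all genes. The smallest p-values belonged to Tsku, a secreted hepatic protein (1.69 ± 0.20, edgeR adjusted p = 0.0024), Ephx1, the microsomal epoxide hydrolase (1.24 ± 0.22, edgeR adjusted p = 0.0103), and Cyp3a25, a P450 (0.59 ± 0.11, edgeR adjusted p = 0.0118). The target that fell was Cyp1a2, a P450 also driven by the AHR (-1.03 ± 0.20, edgeR adjusted p = 0.0127), which was not called without control replicates 1 and 4 (-0.74, edgeR adjusted p = 0.0625). Only 4 targets were called higher when control replicate 1 or 2 was left out, and likewise for high-fat replicate 3 or 4. Cyp2a5 has also been linked to NRF2, the oxidative stress factor. Of the other NRF2 targets, 6 of 16 tested were called higher and 1 lower (median 0.45). Among those called higher, only Srxn1 was not also on the list of CAR and PXR targets, so the counts of these lists are not separate. Nqo1, Gclc, Gclm, Hmox1 and Txnrd1 were not called. High-fat replicate 3 was the highest high-fat library for 13 of the 16 NRF2 targets and for 21 of the 34 CAR and PXR targets.

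The PAR bZip genes known to act on Cyp2a4 and Cyp2a5 were higher on the high-fat diet. Dbp had 21, 33, 37 and 53 counts in control and 377, 507, 912 and 255 in high-fat libraries, with high-fat replicate 3 again the highest (log2 fold change 3.75 ± 0.41, edgeR adjusted p = 0.0017). Tef rose from 24.5 ± 6.85 to 62.5 ± 9.34 CPM (1.35 ± 0.19, edgeR adjusted p = 0.0043). Hlf was called as well (0.57 ± 0.12, edgeR adjusted p = 0.0197), but the call ended when control replicate 2 or any of high-fat replicates 1 to 3 was left out (range of edgeR adjusted p = 0.0516 to 0.0563). Of 16 PAR bZip and clock genes 8 were called higher and 3 lower (median 0.40); 1 was called lower when any of control replicates 1 and 2 and high-fat replicate 2 was left out. Collection time was not given, so diet and time of day cannot be told apart for these genes or for the P450 genes.

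Most female-predominant genes outside the array were not called. Of 20 listed genes 19 were in the table and 11 were tested; Slc22a27, an organic anion transporter gene, was called higher (3.27 ± 0.50, edgeR adjusted p = 0.0057) and none was called lower (DESeq2 called 1). The median log2 fold change was 0.49, with 9 of 11 values above 0. At an unadjusted p of 0.05, 2 were higher, Slc22a27 and the transcription factor gene Tox, and 2 were lower. Besides Slc22a27, the groups did not overlap for Ntrk2 (1.14 ± 0.52, edgeR adjusted p = 0.205) and for the untested Hao2, both higher on the high-fat diet and, like Tox, named after their values were seen. Slc22a27 had 10, 7, 16 and 9 counts in control and 65, 73, 228 and 66 in high-fat libraries, so high-fat replicate 3 stood out there too. Its control libraries alone did not reach the count needed for testing, so it entered the test only with the high-fat libraries. Its call, and the median of the list that includes it, are therefore no support for a shared direction. The 2 lower genes were the P450 genes Cyp2c40 (-2.02, edgeR adjusted p = 0.0797) and Cyp2c69 (-2.17, edgeR adjusted p = 0.0839). Cyp3a41a and Sult2a1 had 3 counts or fewer in every library. Without control replicate 3, 2 were called higher.

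Of 22 male-predominant genes tested, 8 were called lower and 0 higher (0 also at an unadjusted p of 0.05 and by any alternative fit), with a median log2 fold change of -0.83. Susd4, a complement regulator, had 775, 873, 459 and 797 counts in control and 363, 224, 233 and 232 in high-fat libraries and fell (-1.54 ± 0.24, edgeR adjusted p = 0.0057). Moxd1 had 370, 311, 59.3 and 234 CPM in control and 45.6, 24.0, 3.32 and 21.1 CPM in high-fat libraries, so control replicate 3 and high-fat replicate 3 were the lowest of their groups (-3.37 ± 0.73, edgeR adjusted p = 0.0206). That call ended when control replicate 2, high-fat replicate 2 or high-fat replicate 4 was left out (range of edgeR adjusted p = 0.0515 to 0.0645). High-fat replicate 3 was the lowest high-fat library for 18 of the 22 genes, against 29.3% of all genes. Without a single library the number called lower was 2 to 10, with fewer than 6 in every case except control replicate 3 (10) and high-fat replicate 1 (6). Stat5b, which carries the growth hormone signal, fell (-0.50 ± 0.11, edgeR adjusted p = 0.019). It was not called without high-fat replicate 4 (edgeR adjusted p = 0.0554). Of 11 growth hormone signalling genes tested, 1 was called lower, Stat5b, and 0 higher (median -0.18). Ghr, Jak2, Stat5a, Socs2, Cish and Igf1 were not called. Bcl6 (0.16 ± 0.57, edgeR adjusted p = 0.892) and Cux2 (0.16 ± 0.38, edgeR adjusted p = 0.836), repressors linked to sex-biased liver expression, were not called, and their sign changed with a library left out.

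Cyp2a5 is known as a pericentral enzyme. Of 13 other pericentral genes 1, Cyp1a2, was called lower. At an unadjusted p of 0.05, 2 were higher and 2 lower, and the median was 0.20. Of 10 periportal genes 5 were called lower and 0 higher (0 also at an unadjusted p of 0.05 and by DESeq2 or limma-voom), with a median of -0.45. The periportal calls included Cps1 of the urea cycle (-1.01 ± 0.22, edgeR adjusted p = 0.0209) and the histidase gene Hal (-0.98 ± 0.21, edgeR adjusted p = 0.0194). They were not stable: 0 were called without high-fat replicate 4, 2 when control replicate 1, high-fat replicate 1 or high-fat replicate 3 was left out, and 3 without control replicate 2. The part of zonal differences in the P450 results was not tested.

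**Figure D5:**
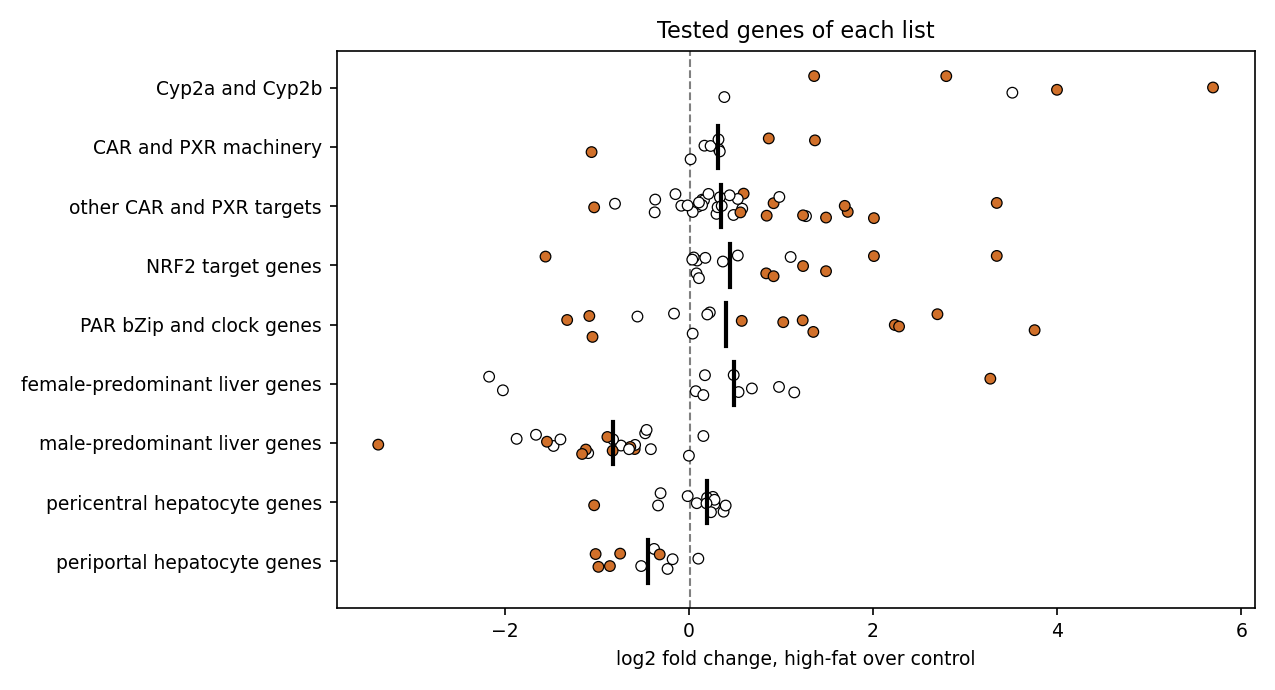
Log2 fold change, high-fat over control (horizontal axis), of each tested gene in the lists named at the left; filled points passed edgeR's adjusted p of 0.05, black bars are list medians, and the dashed line is the median of all genes (0.0069). The Cyp2a and Cyp2b genes, shown without a median since several entered the test only through the high-fat group, lie between 0.38 and 5.69, and the male-predominant genes lie mostly below 0.

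Finally, for each tested gene the 3 genes with the most similar profile were named by the root mean square difference of mean-centred log2 CPM over the 8 libraries, among 11611 genes. The profile nearest to Cyp2a4 was that of Ly6d (difference 0.66), ahead of Themis (0.91) and Dbp (0.92). Ly6d had 1.63, 0.962, 3.88 and 1.13 CPM in control and 31.7, 20.6, 65.6 and 23.7 CPM in high-fat libraries, with the same highest library in each group as Cyp2a4. Cyp2b10 was nearest to Dbp (0.45), Slc22a29 (0.47) and Slc22a27 (0.52). Cyp2a5 was nearest to Ephx1 (0.23), Bmper (0.29) and Aox1 (0.29), and Cyp2a12 to Mgst1 (0.077), Pgrmc1 (0.080) and Cd59a (0.080). Cyp2a22 was nearest to Osbpl3 (0.42), Ephb2 (0.43) and Mogat1 (0.44). Among the genes compared, no profile came close to that of Cyp2b9, for which the smallest differences were those of Cyp2a22 (1.23), Cyp2a4 (1.26) and Ly6d (1.32). Cyp2b13, its near copy, was not tested and so was not among the genes compared. The values describe 8 libraries that share the diet contrast.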

How the data were processed

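Liver RNA of 8 mice was sequenced, 4 per diet. Per the labels' protocols, the libraries were made from total RNA with a stranded kit. The authors deposited whole-number read counts per gene with mm10 coordinates. TopHat2 2.1.1, Trimmomatic 0.32 and bcl2fastq 2.20.0.422 are the tools named in the submitters' processing notes. How reads were counted, with which annotation and whether by strand, is not stated in the sources used. Multi-mapping reads may therefore have been dropped or split between paralogs.

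Counts were fitted in R 4.3.3 with edgeR 4.0.16 (filterByExpr, TMM, glmQLFit and glmQLFTest) over all 8 libraries without covariates, with Benjamini-Hochberg adjustment over the 14088 genes tested. SE is the size of the log2 fold change over the root of F. CPM use TMM-scaled library sizes, with SD over 4 libraries. P-values measure the spread between these mice. Members, lists and alternatives were chosen with earlier results of these data known. Named genes were all 8 members, a few fixed regulators, up to 4 called genes per list by smallest p, Cyp rows of the locus and the 3 nearest profiles per member; not every such gene is described. Alternatives were RLE factors, library totals, DESeq2 1.42.0, limma-voom (limma 3.58.1), other filters, a stricter threshold and left-out libraries. Shares have exact (Clopper-Pearson) 95% intervals. Identities, 50-base windows and transcript lengths use the longest protein-coding GENCODE M21 transcript of each gene. Counts simulated for this comparison over 14088 genes were used to check edgeR. It found 84% of 100 genes altered by 1 and 99% of 100 altered by 2 on the log2 scale, with 12 false calls among 195. The altered genes were drawn only from those above a minimum mean count, so these rates do not cover low genes such as Cyp2b10.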

Additional observations from a re-analysis of the deposited data

Results flagged for a closer look

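In a group of 4 libraries, a highest or lowest value was marked when its gap to the next library was, as a share of the range of the group, above the critical value of Dixon's test. This held in 10 of 87 groups examined. The nominal rate of about 1 in 20 is for normally distributed values and genes not chosen from the same data. The number of marks therefore does not measure an excess over that rate. A group with a lone count always has a gap of 1. Among the P450 genes, high-fat replicate 3 was marked for Cyp2a4 (18.7 CPM, gap 0.888 of the range) and Cyp2b23 (0.0338 CPM from a lone count, gap 1). Control replicate 3 was marked for Cyp2a22 (3.02 CPM, gap 0.953), Cyp2b9 (3.15 CPM, gap 0.988) and Cyp2b13 (0.0343 CPM from a lone count, gap 1). Control replicate 3 was also marked for the lipid droplet gene Cidea (1.71 CPM, gap 0.86). High-fat replicate 3 was marked for Slc22a27 (7.71 CPM, gap 0.938). The remaining marks were Bcl6 in high-fat replicate 4 (44.9 CPM, gap 0.968), Susd4 in high-fat replicate 1 (12.6 CPM, gap 0.884) and Cyp3a25, lowest in high-fat replicate 1 (282 CPM, gap 0.893).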

How the results depend on the processing

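Each of the 6 tested genes kept its direction in every alternative run. Cyp2a4, Cyp2b9 and Cyp2b10 passed the low-count filter only through the high-fat libraries. For them, neither the kept direction nor the absence of lower calls is support. The number called higher, 4, was 3 to 6 under other scalings, filters and tools, 2 to 5 with 1 library left out and 1, Cyp2b10, at an adjusted p of 0.01; the number called lower was 0 throughout. Cyp2b10 passed wherever it was tested at 0.05, and it was not tested with a minimum of 1 CPM in 4 libraries. Without a low-count filter Cyp2b13 entered the test and was called, and Cyp2b9 was called too (edgeR adjusted p = 0.0461). With library totals alone the machinery list had 5 higher calls, and 3 periportal genes were called lower. Without a low-count filter 15 male-predominant genes were called lower, and DESeq2 called 3 CAR and PXR targets lower; at an adjusted p of 0.01 the targets had 1 higher call and the clock list 4. The sign of Alas1 changed without control replicate 1 (-0.0046). Bcl6 changed sign with limma-voom (-0.12) and without control replicate 3 (-0.050) or high-fat replicate 4 (-0.80), and Cux2 without control replicate 4 (-0.022) or high-fat replicate 3 (-0.076). With 1 library left out their log2 fold changes ran to 0.86 for Alas1, 0.53 for Bcl6 and 0.36 for Cux2. The causes were not tested. No paired analysis was possible because the labels give no replicate numbers shared between the diets. Depth limits Cyp2b10, Cyp2b13 and the control values of Cyp2a4, which rest on few counts.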
